A study of Homo sapiens with 10 samples.

Results

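The genes described here make ribosomes in the nucleolus: factors that fold, modify and cut the ribosomal RNA (rRNA) precursor, factors that mature the subunits, and components of RNA polymerase I (Pol I). A list of 54 gene symbols was chosen by function, with earlier results of these data known. Of these 53 were found in both the RNA-Seq and the Ribo-Seq table, out of 11258 transcripts that the tables share. PPAN was not analysed here. The cells were BJ cells, human fibroblasts immortalised by expression of the telomerase subunit hTERT and cultured in medium with calf serum. They carry their own p53 gene. They were treated with nutlin-3a, a compound that keeps MDM2 from binding p53 and so raises p53 activity, for 2, 4, 6 or 19 h, and the control was cells of the same line at 0 h. Each of these 5 conditions was profiled once by RNA-Seq of poly(A) RNA and once by Ribo-Seq, in which the stretches of mRNA covered by ribosomes are sequenced. All 10 libraries are therefore groups of 1 library, no difference has a replicate check, no p-value was computed, and the errors given are counting errors alone.

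Ribosome production begins when Pol I copies the rRNA genes into a long precursor. Box C/D particles, built on fibrillarin and NOP56 with NOP58, methylate that precursor, and box H/ACA particles, built on dyskerin, turn uridines into pseudouridine. The precursor is cut within a large assembly called the small subunit (SSU) processome, and the pre-40S and pre-60S particles then mature separately on their way to the cytoplasm. Many of these genes are known targets of the transcription factor MYC, which binds E-box sequences, and the mRNAs of ribosomal proteins begin with a pyrimidine tract (5' terminal oligopyrimidine, TOP) through which mTOR signalling controls their translation.

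RNA and Ribo-Seq levels come from a table each. The table used for RNA carries both assays in its name and the same column names as the other. It was read as RNA-Seq from the names, and every RNA and TE value rests on that reading. The recovered read totals given below lie near those the study lists for each assay. The levels are FPKM, reads divided by the length of the transcript and by the depth of the library, as the authors deposited them. Ribosome density is the FPKM of the Ribo-Seq table, and translational efficiency (TE) is the Ribo-Seq value over the RNA-Seq value. Changes are log2 ratios to the control library, with values below 1 FPKM raised to 1, and a gene is called lower or higher where it differed from the control at least 1.5-fold. The background is the 7015 transcripts that reached 5 FPKM in any RNA-Seq library and in any Ribo-Seq library. Of the 53 members 47 passed that filter, and RRN3, UTP15, UTP20, UTP23, RRP8 and RRP15 did not. Counts below are over all 53.

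Recovered read totals ranged from 23845558 to 27554287 in the RNA-Seq libraries and from 7744899 at 19 h to 14460723 at 4 h in the Ribo-Seq libraries. For the control, 6 h and 19 h, the totals of each table lay near the non-rRNA read numbers that the study lists for that assay. It lists none for 2 and 4 h. A member had a median of 1219 reads in the control of RNA-Seq, 591 in that of Ribo-Seq and 234 in the Ribo-Seq library of 19 h. By the study's read statistics, the control, 6 h and 19 h Ribo-Seq libraries had smaller shares of reads in coding sequence than its other Ribo-Seq libraries. The share of reads starting at the first base of a codon was smaller too. The part of this in the density and TE changes was not tested. The median of all tested transcripts moved by 0.10 in ribosome density and 0.18 in TE at 4 h, and by -0.19 in density at 19 h, so member medians are also given relative to it. The Ribo-Seq libraries of 2, 6 and 19 h differed from that of the control by transcript length, with density higher by 0.15, 0.11 and 0.16 per doubling of length, whereas at 4 h the slope was -0.0018. The members had a median length of 2400 bases, against 2601 over the tested transcripts, and ranged from 551 to 9025. CDKN1A, the p53 target that encodes p21, rose from 68.6 FPKM of RNA in the control to 1316 at 19 h, and MDM2 from 14.9 to 259. MKI67, a marker of cycling cells, went from 77.6 FPKM to 0.706 over the same time, and its part in the member changes was not tested. The fibroblast markers COL1A1, COL1A2 and VIM stood at 1642, 1807 and 4194 FPKM in the control. The epithelial keratins KRT18 and KRT8 were at 293 and 12.4 FPKM there, and EPCAM, CDH1, KRT19 and the blood and endothelial markers PTPRC, PECAM1, CDH5, VWF and CD34 were not analysed here.

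The members as a group were lower after 6 h and lower still after 19 h, in RNA and further in ribosome density. At 19 h the median RNA change was -0.56, which is -0.49 relative to all tested transcripts. Of the 53 members 50 (94.3%) lay below their control value, against 57.2% of all tested transcripts. The median change of density was -0.78, or -0.59 relative to all tested transcripts. The median TE change was -0.22, against -0.07 over all tested transcripts. In poly(A) RNA of a whole culture, fewer cells that express a gene and less RNA per cell cannot be told apart.

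By counts, no member was lower or higher in RNA at 2 h, where 0.214% of all tested transcripts were lower and 2.08% higher. At 4 h BRIX1 alone was lower and none was higher, against 3.58% and 3.51% of all tested. At 6 h 10 members were lower and none was higher, with 11.6% and 5.74% as background. At 19 h 26 members (49.1%) were lower in RNA and none was higher, whereas 14.6% of all tested transcripts were lower and 7.13% higher. The RNA level was lowest in the 19 h library for 43 of 53 members (81.1%), against 35.4% of the tested transcripts.

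In ribosome density, NOP10 was lower at 2 h and POLR1A, RRP12 and RRP1 were higher, with 2.72% lower and 6.96% higher as background. At 4 h BRIX1 was lower and NHP2 higher, against 3.26% and 10.4%. At 6 h 21 members (39.6%) were lower and none higher, against 19.0% and 15.0% of all tested. At 19 h 34 members (64.2%) were lower and none higher, where 29.8% of all tested transcripts were lower and 15.0% higher. The Ribo-Seq level was lowest in the 19 h library for 42 of 53 members (79.2%), against 46.6% of all tested.

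By median the members lay nearer to the background in TE than in RNA or density at 6 and 19 h, but still below it. Relative to all tested transcripts the TE median was -0.17 at 6 h and -0.15 at 19 h. At 19 h 39 members (73.6%) lay below their control in TE, against 55.6% of all tested. At 2 h none was lower and POLR1A was higher, against 1.78% and 5.39% of all tested. At 4 h none was lower and UTP18 and NHP2 were higher, against 0.713% and 9.24%. At 6 h 9 members (17.0%) were lower and 1, POLR1A, was higher, with 12.3% and 13.3% as background. At 19 h 12 members (22.6%) were lower and none higher, against 15.6% and 9.0%.

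**Figure D1:**
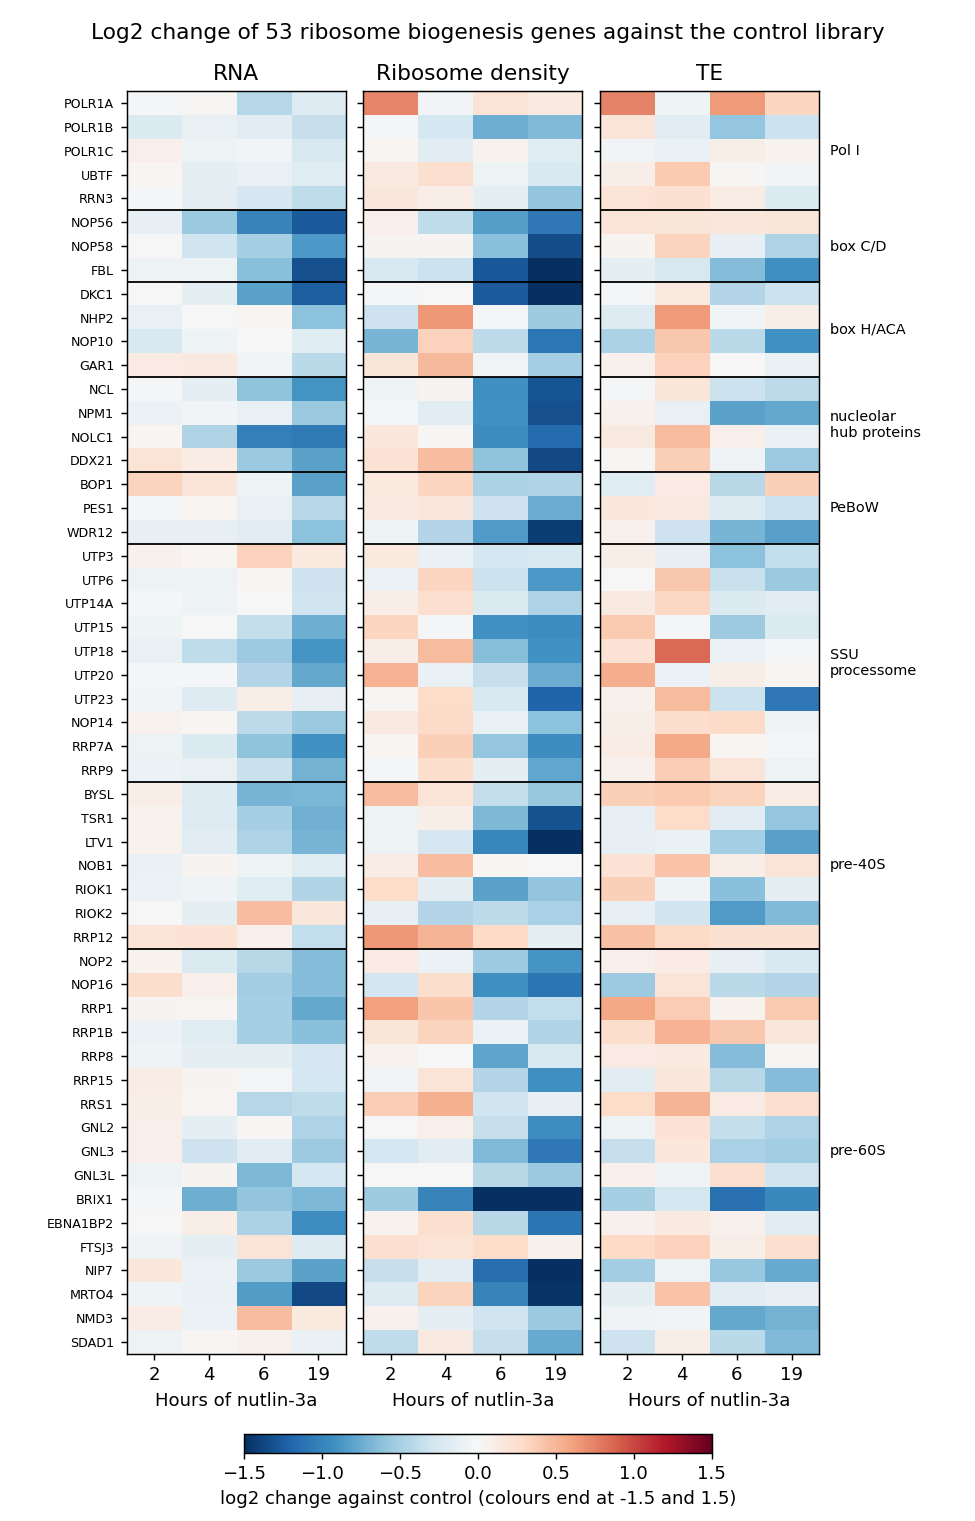
Log2 change against the control library of the same assay for all 53 members in RNA, ribosome density and TE at 2, 4, 6 and 19 h, with rows grouped by role and 1 library per condition and assay. Blue is lower and red is higher, and colours end at -1.5 and 1.5. The blue deepens from 6 to 19 h in RNA and density, where medians reach -0.56 and -0.78, and the 5 Pol I genes at the top stay pale in RNA.

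Set side by side at 19 h, 21 members (39.6%) were lower in RNA and not in TE, against 12.4% of all tested transcripts, among them NOP56, DKC1, NCL, NOLC1, MRTO4 and EBNA1BP2. A further 7 (13.2%) were lower in TE and not in RNA, against 13.4% of all tested, namely NOP10, NPM1, UTP23, RIOK2, RRP15, NMD3 and SDAD1. FBL, WDR12, LTV1, BRIX1 and NIP7 (9.43%) were lower in both, against 2.2%. The other 20 (37.7%) were lower in neither, against 72.0%, and 8 of these 20 still passed 1.5-fold lower in ribosome density, where smaller changes of RNA and TE add up.

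**Figure D2:**
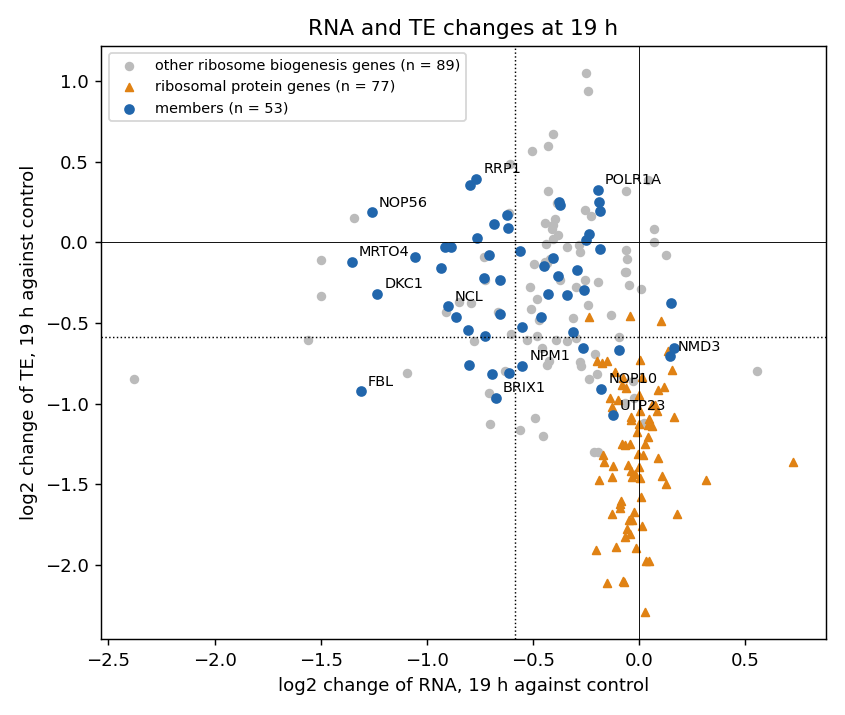
Log2 change of TE (vertical) against log2 change of RNA (horizontal) at 19 h over the control, 1 point per gene, for 53 members, 89 other ribosome biogenesis genes and 77 ribosomal protein genes. Dotted lines mark 1.5-fold lower. The members spread along the RNA axis down to -1.35, whereas the ribosomal proteins lie near 0 in RNA and reach -2.29 in TE.

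The sequences at the annotated starts of a few members are shown because MYC and TOP control, both known for genes of the translation machinery, are read there. They are from RefSeq promoter windows on GRCh38.p14, which hold 250 bases before and 50 after each annotated start. That build is not the hg19 of the deposited files, and the start used in these cells may be another. Of the 54 listed genes 47 have an entry, PPAN among them. NOP58, BOP1, UTP23, RRP1B, RRP12, RRS1 and NOLC1 have none. The search was for a TOP form, a C at the annotated start followed by at least 4 bases that are each C or T, on the strand of the gene. The E-box searched was CACGTG, which reads the same on both strands.

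A TOP form was found at 6 members: FBL, NPM1, DDX21, NOB1, UTP14A and EBNA1BP2. That is 12.8% of the 47, against 8.72% of 5273 other tested genes, 4.07% of all 35116 windows and 74.6% of 63 ribosomal protein genes. The windows below hold 15 bases on either side of the start boundary, with the unbroken pyrimidine run at the start in capitals. FBL, NOB1 and UTP14A each have 1 annotated start, whereas NPM1, DDX21 and EBNA1BP2 have 2, and the form is at 1 of them. The windows lie at chr19:39846365-39846394 (minus strand) for FBL, chr5:171387834-171387863 (plus strand) for NPM1, chr10:68956155-68956184 (plus strand) for DDX21 and chr16:69754912-69754941 (minus strand) for NOB1. NOP56, at chr20:2652617-2652646 (plus strand), has no such run and is shown for contrast.
FBL: ccgcgcgcctgcgctCTTTTCCacgtgcga
NPM1: cggggagcctgcgtcCTTTCCCTggtgtga
DDX21: agggtggggaactacCTCTTCCTCTCCacg
NOB1: cgcatgcgcgctcccCTCTCacgcagccaa
NOP56: gagcgcgctagccgcattgcgagccgaacc

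Of these 6 members, FBL and NPM1 were lower in TE at 19 h, with changes of -0.92 and -0.76. The share lower in TE over all tested transcripts was 15.6%. The TE changes of the other 4 were -0.54 for DDX21, -0.17 for UTP14A, -0.16 for EBNA1BP2 and 0.19 for NOB1, the lowest and highest of the 6 thus differing in sign. The median TE change was -0.36 over these 6 and -0.26 over the 40 measured members whose start lacks the form. Among the other tested genes the medians were -0.24 with the form and -0.06 without it.

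The E-box was found in the 300-base window of 18 members (38.3%), against 12.8% of the other tested genes and 7.26% of all windows. In the windows below the E-box is in capitals in the middle of 30 bases, and its position is counted from the annotated start, which is 1. FBL (position 7, chr19:39846356-39846385, minus strand) has it directly after its pyrimidine run, with 1 base in common. MRTO4 (position 15, chr1:19251807-19251836, plus strand), UTP18 (position 5, chr17:51260538-51260567, plus strand), GNL2 (position 4, chr1:37595917-37595946, minus strand) and RRP9 (position -5, chr3:51941892-51941921, minus strand) also have it close to the start.
FBL: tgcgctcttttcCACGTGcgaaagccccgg
MRTO4: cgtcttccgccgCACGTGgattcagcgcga
UTP18: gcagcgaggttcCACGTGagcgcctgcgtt
GNL2: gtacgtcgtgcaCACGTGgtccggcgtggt
RRP9: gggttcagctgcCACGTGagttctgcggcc

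Members with the E-box had a median RNA change of -0.67 at 19 h (n = 18, from -1.35 to -0.09), and 10 of them were lower. The 28 members without it had a median of -0.42 (from -1.26 to 0.17), and 12 were lower, where 14.6% of all tested transcripts were. The ranges overlap over most of their length, and NOP56 and DKC1, at -1.26 and -1.24, have no E-box in the window. Among the other tested genes the medians were -0.06 with the E-box (n = 675) and -0.07 without it (n = 4598). A match to these letters does not show that a factor binds there in these cells.

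**Figure D3:**
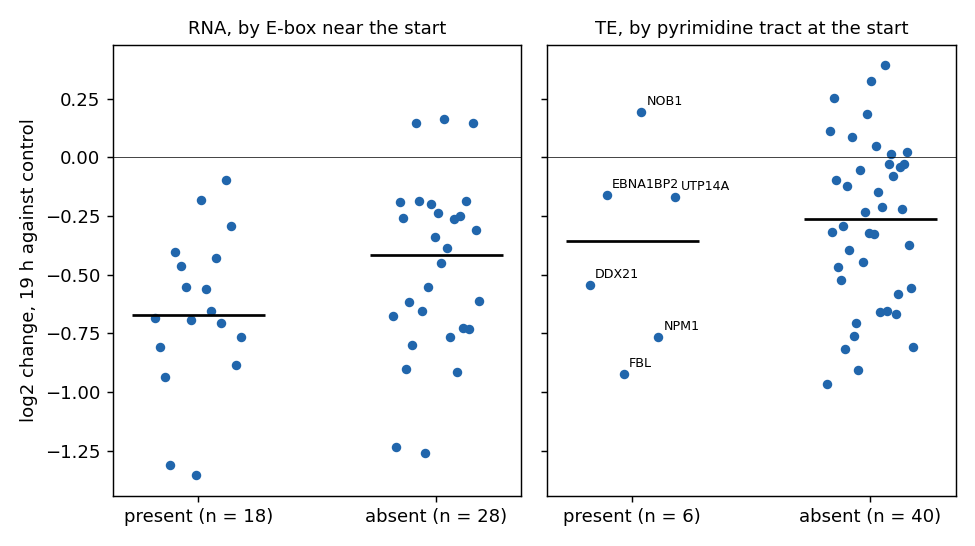
Log2 change of members at 19 h over the control, 1 point per gene with the median as a line: RNA by presence of the E-box in the 300-base window (left), and TE by presence of the TOP form at the annotated start (right). The RNA medians are -0.67 with and -0.42 without the E-box, and the 6 members with a TOP form range in TE from -0.92 (FBL) to 0.19 (NOB1).

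Among the 5 Pol I genes, no RNA change reached 1.5-fold at any time. POLR1A, the largest subunit of the enzyme, had 15.8, 15.7, 16.0, 11.8 and 13.8 FPKM of RNA in the control and at 2, 4, 6 and 19 h. Its Ribo-Seq levels were 6.97, 11.5, 6.77, 8.06 and 7.63 FPKM in the same order. The 2 h library stood above the rest in density, and the TE of POLR1A was higher than control by 0.74 at 2 h, by 0.64 at 6 h and by 0.33 ± 0.10 (counting SE) at 19 h. Its transcript is 6637 bases long, and these are the libraries in which density and TE increased with length over all tested transcripts. The part of length in the TE changes of POLR1A was not tested.

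POLR1B, the next largest subunit, had 8.45 FPKM of RNA in the control and 6.68 at 19 h, and its Ribo-Seq level went from 5.30 to 3.34. The density changes were -0.74 at 6 h and -0.67 ± 0.17 at 19 h, both past 1.5-fold, but at 19 h it was -0.08 with a floor of 5 FPKM, -0.54 with a pseudocount of 1 FPKM and -0.47 relative to all tested transcripts. POLR1C, a subunit shared with RNA polymerase III, stayed between 12.1 and 15.0 FPKM in RNA and between 15.6 and 18.5 in Ribo-Seq. UBTF, the factor that opens rRNA genes, had 25.6 FPKM of RNA in the control and 22.5 at 19 h. RRN3, which brings Pol I to the promoter, went from 10.7 to 8.17 FPKM in RNA and from 3.53 to 2.34 in Ribo-Seq, a density change of -0.59 ± 0.21 on low values, which was -0.40 relative to all tested transcripts. At 19 h the 5 RNA changes lay between -0.38 and -0.19. Of 10 other Pol I factors listed, 6 passed the filter, and their median RNA change was -0.37. POLR1E was the lowest of the 6 at -1.09 and ZNRD1 the highest at 0.01.

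The box C/D proteins had the lowest group median in RNA, -1.26 at 19 h, with all 3 lower, against 14.6% of all tested transcripts. FBL (ENSG00000105202), the methyltransferase fibrillarin, had 88.0, 83.6, 83.4, 57.0 and 35.4 FPKM of RNA over the time course and 146, 125, 117, 60.1 and 30.9 FPKM in Ribo-Seq. RNA was little changed to 4 h and lower in each later library, while Ribo-Seq declined at every step. At 19 h the RNA change was -1.31 ± 0.05, the TE change -0.92 ± 0.11 and the density change -2.24 ± 0.09, the lowest density change of any member. Ribo-Seq reads of FBL went from 1995 in the control to 279.

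NOP56 (ENSG00000101361), a scaffold of the box C/D particle, had 64.6, 59.5, 43.7, 32.4 and 27.0 FPKM of RNA. It was already at -0.56 at 4 h, just short of 1.5-fold, and reached -1.26 ± 0.04 at 19 h. Its Ribo-Seq levels were 44.4, 46.8, 34.1, 24.9 and 21.1 FPKM. Ribo-Seq followed RNA, and the TE change stayed between 0.17 and 0.19 in all 4 treated libraries. NOP58, the partner of NOP56, changed the least of the 3 in RNA, by -0.86 ± 0.05 at 19 h, with a TE change of -0.46 ± 0.13.

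The 4 box H/ACA proteins did not change alike. DKC1 (ENSG00000130826), the pseudouridine synthase dyskerin, had 39.4, 39.5, 35.8, 22.5 and 16.7 FPKM of RNA and 30.9, 30.2, 31.1, 13.0 and 10.5 FPKM in Ribo-Seq. Both assays dropped between 4 and 6 h, and the 19 h changes were -1.24 ± 0.05 in RNA and -1.55 ± 0.11 in density. NOP10, the small protein that binds dyskerin, had 105, 89.8, 101, 106 and 92.8 FPKM of RNA, and 179, 110, 227, 136 and 84.4 FPKM in Ribo-Seq. Its RNA thus changed by -0.18 at 19 h whereas its TE changed by -0.91 ± 0.10. NOP10 has the shortest transcript of all members, 551 bases, and its TE change was -0.57 with the length trend removed and -0.43 against the 2 h library, both short of 1.5-fold. NHP2 was lower in RNA at 19 h (-0.62 ± 0.06) with a TE change of 0.09, and GAR1 had changes of -0.40 and -0.10.

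Of the nucleolar hub proteins, NPM1, NCL, NOLC1 and DDX21, all 4 were lower in ribosome density at 6 and 19 h. At these times 19.0% and 29.8% of all tested transcripts were lower in density. NPM1 (ENSG00000181163), the nucleophosmin chaperone, had the highest RNA level of the members, with 631, 592, 614, 585 and 430 FPKM, and 664, 651, 598, 354 and 267 FPKM in Ribo-Seq. At 6 h Ribo-Seq was lower while RNA was near control, a TE change of -0.80 ± 0.03. At 19 h the TE change was -0.76 ± 0.03 and the RNA change -0.55 ± 0.01. The pyrimidine run shown above is at 1 of its 2 annotated starts.

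NCL (ENSG00000115053), nucleolin, which binds the rRNA precursor, had 237, 232, 214, 155 and 127 FPKM of RNA and 146, 140, 150, 76.8 and 59.3 FPKM in Ribo-Seq. Its change at 19 h was mostly in RNA (-0.90 ± 0.02) with -0.40 ± 0.04 in TE. NOLC1, which links box C/D and H/ACA particles to the nucleolus, had 34.0, 34.6, 24.9, 16.7 and 16.3 FPKM of RNA, so that the 6 h level was already that of 19 h. Its TE change at 19 h was -0.09 ± 0.10, within the counting error. DDX21, a helicase that acts in Pol I transcription and rRNA processing, was at -0.81 ± 0.03 in RNA and -0.54 ± 0.09 in TE.

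**Figure D4:**
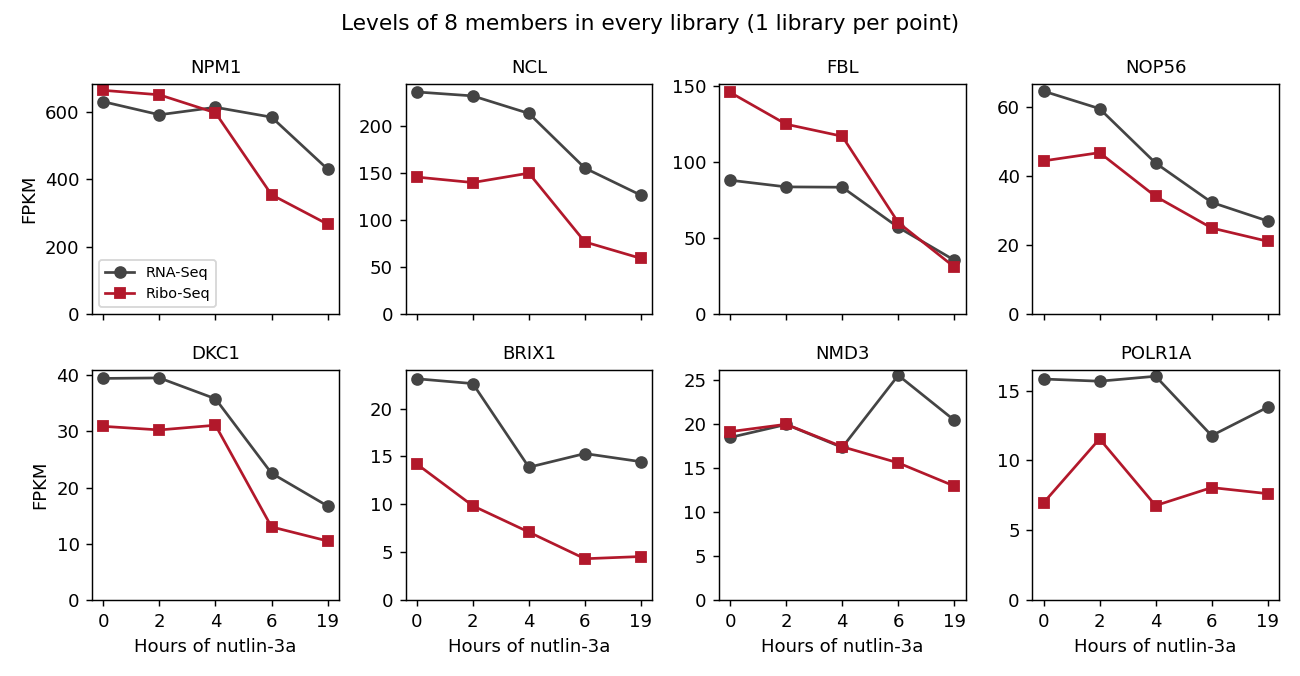
FPKM of 8 members in the 5 RNA-Seq libraries (circles) and the 5 Ribo-Seq libraries (squares) by hours of nutlin-3a, 0 being the control, with 1 library per point and each vertical axis starting at 0. NPM1 separates at 6 h (585 FPKM in RNA, 354 in Ribo-Seq), NOP56 declines together in both, and from 4 to 6 h NMD3 is higher in RNA and lower in Ribo-Seq.

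PES1, BOP1 and WDR12 form the PeBoW complex, which is needed for maturation of the large subunit rRNA. WDR12 had 14.4, 13.1, 13.1, 12.8 and 9.39 FPKM of RNA and 10.8, 10.3, 7.97, 5.96 and 4.02 FPKM in Ribo-Seq, and its TE was the lowest of the 3 at 19 h (-0.81 ± 0.21, or -0.49 with a floor of 5 FPKM). BOP1 was lower in RNA at 19 h (2.89 FPKM against 5.03 in the control, -0.80 ± 0.14) with a TE change of 0.35 ± 0.21. At a floor of 5 FPKM, which is about its control level, the RNA change of BOP1 was -0.0078. PES1 had 46.0 and 34.2 FPKM of RNA in the control and at 19 h, a change of -0.43 ± 0.04.

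Of 10 SSU processome members, 5 were lower in RNA and 8 in ribosome density at 19 h. Of all tested transcripts 14.6% and 29.8% were lower. UTP15, UTP20 and UTP23, among the 8, had every Ribo-Seq value below 5 FPKM. With a floor at that level their density changes were 0.0. RRP7A was the lowest in RNA, with 21.4, 20.3, 18.5, 14.0 and 11.3 FPKM, a change of -0.91 ± 0.05, and its TE changed by -0.03 ± 0.11. UTP18, a processome subunit whose start carries the E-box shown above, had 27.0, 24.9, 20.8, 18.4 and 14.6 FPKM of RNA. Its Ribo-Seq level was 33.7 FPKM at 4 h, above the 24.2 of the control, so that its TE was higher by 0.85 there, and past 1.5-fold in that library alone. UTP20, a very large scaffold protein with a transcript of 9025 bases, had an RNA change of -0.76 ± 0.05 and the highest TE change of the group, 0.02 ± 0.16.

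UTP3 was above its control in RNA, at 27.5 FPKM in the control, 35.1 at 6 h and 30.5 at 19 h. Its TE change at 6 h was -0.61. UTP23, a nuclease-like factor of small subunit processing, had the lowest TE change of all members at 19 h, -1.07 ± 0.25, on 167 Ribo-Seq reads in the control and 48 at 19 h. Its FPKM in Ribo-Seq were 3.84, 3.91, 4.66, 3.28 and 1.68, and at a floor of 5 FPKM the sign turned, to 0.12. The remaining processome members were graded in RNA at 19 h. UTP15 (-0.73) and RRP9 (-0.71), the latter a protein of the U3 particle, were lower. NOP14 (-0.56), UTP6 (-0.31) and UTP14A (-0.29) were not, and of these NOP14 and UTP6 were lower in density, at -0.61 and -0.86, NOP14 not so relative to all tested transcripts (-0.42). With a floor of 5 FPKM the RNA change of UTP15 was -0.24.

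The 7 pre-40S members finish the small subunit. TSR1, a GTPase-like factor of late pre-40S particles, was lowest in RNA, from 20.8 to 12.6 FPKM at 19 h (-0.73 ± 0.05), with a TE change of -0.58 ± 0.11 just short of 1.5-fold. LTV1, which is removed from pre-40S particles before their last steps, had 27.0, 27.9, 24.3, 19.6 and 16.7 FPKM of RNA and 19.5, 18.5, 16.4, 9.94 and 6.85 FPKM in Ribo-Seq. It was lower in both measures at 19 h, with changes of -0.69 ± 0.07 in RNA and -0.82 ± 0.17 in TE. RIOK2, a kinase of late pre-40S particles, went the other way in RNA, with 8.08, 8.08, 7.28, 11.1 and 9.06 FPKM, while its Ribo-Seq level stayed below control after 0 h (6.48, 5.96, 4.76, 4.94 and 4.61 FPKM). Its TE changes were -0.85 at 6 h and -0.66 ± 0.16 at 19 h. The latter was -0.54 against the 2 h library, -0.54 with a floor of 5 FPKM and -0.56 with a pseudocount of 1 FPKM. All of these were short of 1.5-fold.

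RRP12, an export factor, had the highest TE change of this group at 19 h, 0.23 ± 0.12. NOB1, the nuclease that makes the 3' end of 18S rRNA, was nearly level, with 32.1 FPKM of RNA in the control and 28.2 at 19 h, and 34.6 and 34.8 FPKM in Ribo-Seq, although its start also begins with a pyrimidine run. BYSL was lower in RNA at 6 and 19 h (-0.69 and -0.68) with no TE change past 1.5-fold. RIOK1, a kinase related to RIOK2, had 10.2 FPKM of RNA in the control and 7.47 at 19 h. Its density change was -0.60 ± 0.18, just past 1.5-fold, and it was -0.29 with a floor of 5 FPKM, -0.50 with a pseudocount of 1 FPKM and -0.40 relative to all tested transcripts.

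Of the 17 pre-60S members 8 (47.1%) were lower in RNA, 10 (58.8%) in ribosome density and 5 (29.4%) in TE at 19 h. The shares over all tested transcripts were 14.6%, 29.8% and 15.6%. MRTO4 (ENSG00000053372), the placeholder for the ribosomal stalk protein P0, had the lowest RNA change of all 53 members. Its RNA was 30.6, 29.2, 28.6, 17.2 and 12.0 FPKM, a change of -1.35 ± 0.06 at 19 h, and its Ribo-Seq level was 36.3, 31.7, 45.8, 18.1 and 13.1 FPKM. The TE change was -0.12 ± 0.12, within the counting error. EBNA1BP2, an assembly factor of the large subunit, had 73.8, 73.2, 79.4, 53.2 and 38.6 FPKM of RNA (-0.94 ± 0.05 at 19 h), and its TE changed by -0.16 ± 0.07.

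BRIX1 (ENSG00000113460), a factor of the early pre-60S particle, was the only member lower in RNA at 4 h. It had 23.1, 22.6, 13.9, 15.3 and 14.5 FPKM of RNA and 14.2, 9.85, 7.11, 4.33 and 4.56 FPKM in Ribo-Seq. RNA dropped between 2 and 4 h and then stayed level, whereas Ribo-Seq was lower at every time. TE changed by -1.12 ± 0.19 at 6 h and by -0.96 ± 0.20 at 19 h, on 322 and 68 Ribo-Seq reads in the control and at 19 h. Against the 2 h library the 19 h TE change was -0.47. NIP7, a factor of pre-rRNA processing, was also lower in both RNA (-0.80) and TE (-0.76), and its TE change against the 2 h library was -0.24.

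NMD3, the export adaptor of the large subunit, had 18.5, 20.0, 17.4, 25.6 and 20.5 FPKM of RNA and 19.2, 20.0, 17.4, 15.6 and 13.0 FPKM in Ribo-Seq. RNA was highest at 6 h while Ribo-Seq declined from 2 h on. The TE changes were -0.76 at 6 h and -0.71 ± 0.13 at 19 h. With UTP3 and RIOK2, NMD3 completes the 3 members whose RNA was above control at 19 h, by 0.14, 0.15 and 0.17 in the order NMD3, UTP3, RIOK2. These were also the members with the highest RNA changes at 6 h, 0.47, 0.35 and 0.46, and all 3 were lower in TE there. TE has the RNA value as its divisor, so a higher RNA value by itself lowers TE. Their density changes at 6 h were -0.30, -0.26 and -0.39, each short of 1.5-fold. RRP1 had the highest TE change of the pre-60S members at 19 h, 0.39 ± 0.13, with an RNA change of -0.77.

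Of the remaining pre-60S members, NOP2, which methylates a cytosine of 28S rRNA, NOP16 and RRP1B were at -0.66, -0.66 and -0.62 in RNA at 19 h, all past 1.5-fold. The GTPases GNL2 and GNL3 were at -0.46 and -0.55 in RNA and at -0.93 and -1.07 in density, so that they were lower in density alone. Their relative GNL3L was lower in RNA at 6 h (10.4 FPKM against 16.7 in the control) and not at 19 h (13.9 FPKM). RRP15 and SDAD1 were lower in density (-0.92 and -0.76) and TE (-0.66 and -0.67). With a floor of 5 FPKM both changes of RRP15 were 0.0, since its levels lay below that floor. The density change of SDAD1 was -0.38 against the 2 h library and -0.57 relative to all tested transcripts, and its TE change against the 2 h library was -0.36. RRS1, RRP8 and FTSJ3 passed 1.5-fold in no measure at 19 h, and FTSJ3, an rRNA methyltransferase, had changes of -0.19 in RNA and 0.06 in density.

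The rest of the machinery was taken from a list of 102 other biogenesis genes, of which 89 passed the filter. Those genes had a median of -0.40 in RNA, -0.78 in density and -0.29 in TE at 19 h. In RNA 20 of them (22.5%) were lower, a smaller share than among the members (49.1%). In density 50 (56.2%) were lower, against 64.2% of the members, and in TE 31 (34.8%), against 22.6%. Among all tested transcripts 14.6% were lower in RNA, 29.8% in density and 15.6% in TE. With 1 library per group these differences have no test. The lowest RNA changes among the 89 were EXOSC8 at -2.38 and EXOSC2 at -1.56, subunits of the RNA exosome. URB2, an assembly factor of the large subunit, was at -1.34. In TE, TAF1D and DDX52 were lowest, both at -1.30, and EXOSC6 and URB1 were highest, at 1.05 and 0.94.

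The ribosomal protein genes differed from the members in which level changed. Of 79 listed, 77 passed the filter. Their median RNA change at 19 h was -0.03, and none was lower in RNA, against 14.6% of all tested transcripts. The median TE change of the ribosomal proteins was -1.32, and 74 of the 77 (96.1%) were lower in TE, against 15.6%. The members thus had the lower median in RNA (-0.56) and the ribosomal proteins in TE, and with 1 library per group this difference has no test. Over all tested transcripts the TE change at 19 h was higher by 0.15 per doubling of transcript length. The part of length in the TE changes of the ribosomal proteins was not tested. At 4 h the median of the members lay -0.02 in RNA and 0.01 in TE from that of all tested transcripts, and that of the ribosomal proteins 0.03 and -0.04. By 6 h the medians had parted to -0.34 against 0.23 in RNA. In TE 70 of the 77 ribosomal proteins (90.9%) were lower at 6 h, against 12.3% of all tested transcripts. These comparisons share the control libraries.

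**Figure D5:**
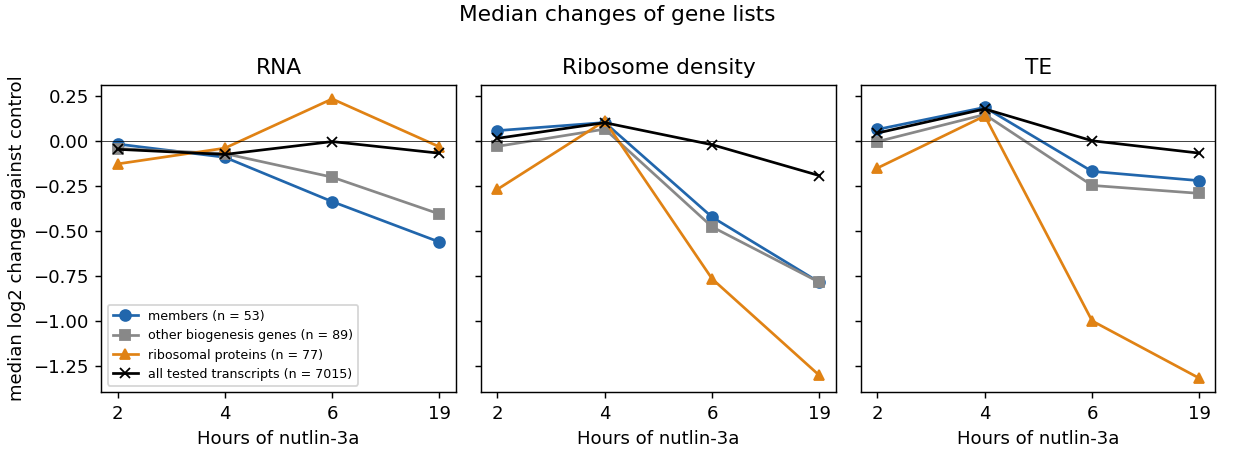
Median log2 change against the control in RNA, ribosome density and TE by hours of nutlin-3a for 53 members, 89 other biogenesis genes, 77 ribosomal protein genes and 7015 tested transcripts. The lists lie together at 4 h. At 19 h the members are at -0.56 in RNA and -0.22 in TE and the ribosomal proteins at -0.03 and -1.32.

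MYC and its partners were read alongside. MYC RNA was 24.2, 28.6, 17.0, 9.91 and 11.9 FPKM in the control and at 2, 4, 6 and 19 h, and its Ribo-Seq level 31.3, 50.9, 30.0, 17.3 and 16.9 FPKM. Both assays were highest at 2 h and low at 6 and 19 h. MXD3 and MXD4, partners of MAX that oppose MYC, went in opposite directions in RNA, from 18.5 to 1.23 FPKM for MXD3 and from 18.5 to 48.6 FPKM for MXD4. MAX itself had 18.9 FPKM in the control and 23.2 at 19 h. MYC RNA was below control at 6 and 19 h, as the median of the members was, and its part in the member changes was not tested.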

How the data were processed

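Poly(A) RNA-Seq and Ribo-Seq of BJ fibroblasts were measured at 5 time points, with 1 library each, grouped by their titles in the labels. By the study's methods and the labels, the authors used Bowtie to align reads to 1 protein-coding transcript for each gene and discarded reads that matched more than once. Processed pseudogenes, such as those of NPM1, were not part of that reference. The labels name the build hg19, and the version of Bowtie is not given in the sources used here. The authors deposited FPKM values with 3 decimals, in 2 tables of 5 columns, and every column was used. Which table holds which assay was read from the table names, since their columns are named alike. The table read as RNA-Seq has both assays in its name. For the control, 6 h and 19 h, the recovered read totals lay near the study's numbers for the assay each table was read as. By the methods, Ribo-Seq values count coding-sequence reads alone, whereas the column names say total. Which reads were counted could not be decided. The divisor was the same in both assays, since the same length fitted both tables for 99.8% of shared transcripts. Ribo-Seq values are thus per the length used for RNA-Seq, which by the methods takes reads over the whole transcript.

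Read numbers and transcript lengths were worked out from the steps between FPKM values for 11237 of 11258 shared transcripts (99.8%), with a tolerance of 0.1 reads. Where each table gave a length, it was the same in 89.2% of 7749. The counting SE of a log2 change is the square root of the summed inverse read numbers over the natural log of 2. It covers counting error only, and PCR copies could not be told apart. Recovery and calls were tested on simulated data.

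Log2 ratios used a floor of 1 FPKM, and no member value was below it. No test across genes was run, since no group had a replicate, so a fold of 1.5 replaced a test. The members, the role groups and the other gene lists were chosen with earlier results of these data known. Named were all 5 Pol I genes, the members at the extremes of RNA and TE at 19 h in each other role group, the 3 members with the highest control RNA, NOP56, BOP1, EBNA1BP2, NPM1, NCL, FBL and DKC1, and examples at the extremes of the other lists. All other members named with values were added after their values were seen. Promoter windows came from RefSeq on GRCh38.p14. Alternatives were a higher floor, a pseudocount, other filters, the 2 h baseline, centring, a length correction and a 2-fold limit. Python 3.11.15, pandas 2.3.3, numpy 2.4.6 and matplotlib 3.10.9 were used.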

Additional observations from a re-analysis of the deposited data

How the results depend on the processing

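Every group holds 1 library, so no replicate was left out, and the 2 h library as baseline stood in for leaving out the control. No paired analysis was possible because every group holds 1 library and no result comes from a test. Across 147 recomputed values for RNA, ribosome density and TE, 132 stayed close to the reported value and 15 moved, as below. Of the 132, 18 came from dropping the filter on low values, which changes the background and not the members. Those 18 equal the reported values by construction and test nothing. Medians were called close within limits from 0.11 (RNA at 6 h) to 0.25 (TE at 19 h), set from the counting SE. The limit for numbers of members was wide. With a floor of 5 FPKM, 27 members in place of 34 lower in density at 19 h were still called close. Of all tested transcripts 24.6% in place of 29.8% were lower there. The sign changed in 1 of the 147, the median RNA change at 2 h, which was -0.02 and became 0.03 with changes centred on all tested transcripts.

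Among the 19 members with a mean of at least 20 FPKM in each assay, the median density change was -0.60 at 6 h and -1.07 at 19 h, with 5 and 10 members lower in RNA, 10 and 14 in density, and 3 and 3 in TE at these times. The counts are smaller by construction, since fewer members were kept. Of all 2583 transcripts with such means, 8.71% and 12.7% were lower in RNA, 16.7% and 29.5% in density, and 12.1% and 15.1% in TE. In TE, 3 of 19 members is near that share. With a 2-fold limit, 1 member at 6 h and 5 at 19 h were lower in RNA, 5 and 19 in density, and 1 and 1 in TE. The shares over all tested transcripts were not computed at that limit, so these counts have no background and cannot be read against one. Against the 2 h library, 7 members in place of 12 were lower in TE at 19 h, and 10.2% of all tested transcripts in place of 15.6%. Of the members, NOP10, RIOK2, RRP15, BRIX1, NIP7 and SDAD1 were no longer lower. UTP15, which did not pass the filter on low values, became lower. Its TE changes against the control were 0.39 at 2 h and -0.22 at 19 h. The cause was not tested.

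Of single members, UTP23 turned from -1.07 to 0.12 in TE with a floor of 5 FPKM, above all its Ribo-Seq values. NHP2, WDR12 and RRP1B, at -0.62, -0.61 and -0.62 in RNA, passed 1.5-fold neither against the 2 h library nor with changes centred on all tested transcripts. In density at 19 h, POLR1B, RRN3, UTP20 and RIOK1 no longer passed 1.5-fold with a floor of 5 FPKM, a pseudocount of 1 FPKM or centring, nor NOP10 (-0.38) and SDAD1 (-0.38) against the 2 h library, nor PES1 (-0.56) with centring. With the floor of 5 FPKM, UTP15, UTP23 and RRP15 were at 0.0 in density. Only the 47 members past the filter on low values, an alternative chosen after seeing the data, gave medians of -0.61 in RNA, -0.78 in density and -0.23 in TE at 19 h. Low read numbers limit TE: the fewest Ribo-Seq reads of a member in a library were 44.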
